A study of Mus musculus with 4 samples.

Results

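Janus kinases (JAK) and the suppressors of cytokine signalling (SOCS) were examined in mouse blood stem and progenitor cells (HSPC) purified by flow sorting. The group was set by gene symbol as 8 genes, the kinase genes Jak1, Jak2, Jak3 and Tyk2 and the feedback genes Socs1, Socs2, Socs3 and Cish, and all 8 were found among the 24015 symbols counted. All 8 were among the 14191 genes kept by the filter on low counts. RNA-seq read counts came from 2 caNIK libraries and 2 control libraries. The caNIK mice carried a NIK transgene at the Rosa locus behind a stop flanked by loxP sites, and Vav-iCre, a Cre recombinase driven in blood cells, removed that stop. NIK acts at the head of non-canonical NF-kB signalling, and the encoded form escapes TRAF3, the protein that normally has it degraded. Because Vav-iCre acts throughout the blood system, the transgene is not limited to stem cells. The labels call the other mice only control, and the sources used here give neither their alleles nor the age, sex or number of the animals, nor the gates of the sort. The study asks how constant NIK activity affects the self-renewal of blood stem cells.

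JAK kinases sit on the inner part of cytokine receptors that have no kinase activity of their own. When a cytokine joins its receptor chains, the kinases activate each other and phosphorylate the receptor and the STAT transcription factors, which then enter the nucleus. SOCS proteins and CISH are themselves made in response to STAT activity, and they bind the kinases or the receptors and damp the signal. In blood stem and progenitor cells, JAK2 carries the signals of thrombopoietin, erythropoietin and interleukin-3, JAK3 works with the common gamma chain, and JAK1 and TYK2 serve interferon receptors.

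Totals of the 4 libraries lay between 18574452 and 23162766 counts. Map3k14, the gene of NIK, reached 177 and 192 CPM (reads relative to the library total, scaled by trimmed means, TMM) in caNIK libraries, against 30.2 and 25.0 CPM in control libraries. A count per symbol does not separate the inserted copy from the native gene. Over all 14191 tested genes, 1964 were higher and 1165 lower in caNIK HSPC, at an adjusted p under 0.05 in edgeR's quasi-likelihood test. Whether replicate libraries stem from different mice is not stated, so each p reflects only how much these samples vary, which may be technical variation. The libraries are bulk RNA, in which fewer cells of a type and less RNA per cell cannot be told apart.

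Start-site sequences are shown for 4 of the members described here, because STAT factors and interferon-activated factors are known to act on such regions of SOCS genes. Windows of 250 bases before the RefSeq start (build GRCm38.p6) were found for 7 of the 8 members, all except Socs2, and are written 5′ to 3′ on the gene's strand. They were searched on both strands for TTC and GAA with any 3 bases between (the STAT element, GAS), for GAAA and GAAA with any 2 bases between (the core of the interferon element, ISRE) and for GGGA and TTCC with any 2 bases between (an NF-kB element). Matches stand in capitals. The Socs1 window lies at chr16:10785537-10785786 (minus strand), that of Socs3 at chr11:117969367-117969616 (minus), that of Cish at chr9:107296409-107296658 (plus) and that of Jak2 at chr19:29251553-29251802 (plus).
Socs1: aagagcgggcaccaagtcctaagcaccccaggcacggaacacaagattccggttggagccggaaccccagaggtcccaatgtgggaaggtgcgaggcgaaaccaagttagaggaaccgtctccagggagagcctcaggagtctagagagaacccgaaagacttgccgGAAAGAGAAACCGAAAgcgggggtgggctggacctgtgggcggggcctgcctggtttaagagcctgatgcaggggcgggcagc
Socs3: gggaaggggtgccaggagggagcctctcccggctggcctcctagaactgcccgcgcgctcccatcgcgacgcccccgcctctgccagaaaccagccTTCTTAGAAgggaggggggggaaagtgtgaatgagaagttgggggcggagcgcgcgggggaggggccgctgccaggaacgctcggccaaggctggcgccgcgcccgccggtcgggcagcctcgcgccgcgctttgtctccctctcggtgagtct
Cish: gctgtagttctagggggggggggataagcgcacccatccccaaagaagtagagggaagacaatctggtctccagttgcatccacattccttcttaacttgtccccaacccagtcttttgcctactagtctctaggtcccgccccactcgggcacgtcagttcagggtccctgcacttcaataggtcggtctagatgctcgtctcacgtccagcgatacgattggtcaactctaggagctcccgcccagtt
Jak2: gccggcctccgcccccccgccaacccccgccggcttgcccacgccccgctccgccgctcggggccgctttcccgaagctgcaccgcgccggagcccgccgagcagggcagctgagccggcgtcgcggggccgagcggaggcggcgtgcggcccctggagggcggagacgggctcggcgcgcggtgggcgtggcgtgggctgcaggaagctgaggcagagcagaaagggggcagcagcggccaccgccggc
The Socs1 window held 2 overlapping interferon cores, GAAAGAGAAA and GAAACCGAAA, whose first bases lie 83 and 77 bases before the start. The Socs3 window held 1 STAT element, TTCTTAGAA, that begins 154 bases before the start. Neither the Cish nor the Jak2 window held any of the 3 motifs, and of the 7 windows 1 held the STAT element, 1 the interferon core and 0 the NF-kB element. Among 32851 windows of the same length in the RefSeq table, 7.02% held the STAT element, 2.98% the interferon core and 1.21% the NF-kB element. These matches describe the letters of the windows only.

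The SOCS feedback genes were higher in caNIK HSPC, all 4 of 4, whereas among the kinase genes Jak2 and Tyk2 rose and Jak1 and Jak3 did not pass the test. Over the 8 members, 6 were higher and 0 lower, with a median log2 fold change of 1.37. Of all tested genes, 22.0% passed in either direction, 13.8% as higher and 8.21% as lower, with a median of 0.00. CPM values of the groups did not overlap for the same 6 members. Across all tested genes the groups did not overlap for 64.9%, with caNIK higher for 33.3% and lower for 31.6%.

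**Figure D1:**
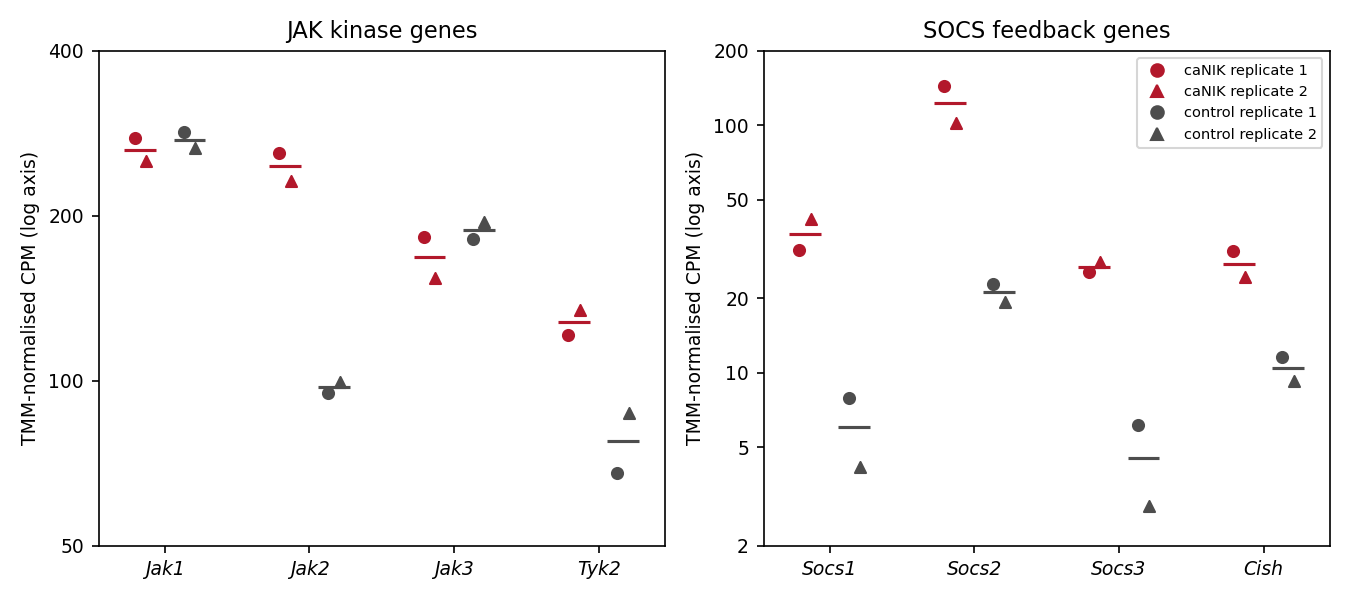
TMM-normalised CPM (log axis) of the 4 JAK kinase genes and 4 SOCS feedback genes in each library, with caNIK left of control, 1 point per library and a line at the group mean. The caNIK points lie above the control points for Jak2, Tyk2, Socs1, Socs2, Socs3 and Cish, and the groups overlap for Jak1 and Jak3.

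Socs2, whose product restrains growth hormone and STAT5 signalling, had the smallest p of the members, at rank 242 of 14191 genes. It was counted 2672 and 2125 times in caNIK libraries, against 442 and 454 times in control libraries. These counts correspond to 143 and 102 CPM in caNIK and 22.9 and 19.3 CPM in control. Both caNIK libraries lay far above both control libraries, and within the caNIK pair replicate 1 was 1.40 times replicate 2. The fold change was 5.82, or 2.54 ± 0.22 on the log2 scale (SE, edgeR adjusted p = 0.00071).

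Socs1, which blocks the kinase domain of JAK1, JAK2 and TYK2 and is known as the main brake on interferon gamma signalling, was counted 585 and 864 times in caNIK libraries and 152 and 98 times in control libraries. Its levels were 31.4 and 41.6 CPM in caNIK, against 7.88 and 4.17 CPM in control. The groups did not overlap, but the control libraries differed from each other, with replicate 1 at 1.89 times replicate 2. The log2 fold change was 2.60 ± 0.36 (6.08-fold, edgeR adjusted p = 0.0039). It was 3.12 without control replicate 1 and 2.21 without control replicate 2.

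Socs3, which binds gp130 and the G-CSF receptor together with their kinases, had 25.5 and 27.9 CPM in caNIK libraries, against 6.17 and 2.90 CPM in control libraries. The counts behind these levels were 475 and 579 in caNIK and 119 and 68 in control. The caNIK pair lay close together, and control replicate 1 was 2.13 times control replicate 2. Socs3 rose by 2.56 ± 0.39 on the log2 scale (5.91-fold, edgeR adjusted p = 0.0058), with 3.19 without control replicate 1 and 2.11 without control replicate 2.

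Cish, the first described member of the family and a classical STAT5 target, was counted 576 and 504 times in caNIK libraries and 223 and 217 times in control libraries. At 30.9 and 24.3 CPM in caNIK, against 11.6 and 9.24 CPM in control, the groups were well separated. Its log2 fold change of 1.41 ± 0.26 (2.65-fold, edgeR adjusted p = 0.011) was the smallest of the 4 feedback genes. In GENCODE M21 its exons overlap those of Gm17040 by 261 bases and Gm17041 by 479 bases on the other strand, and reads of these cannot be told apart without a known strand setting.

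Among the kinase genes, Jak2 rose most. It was counted 4858 and 4799 times in caNIK libraries, against 1830 and 2340 times in control libraries. The levels were 261 and 231 CPM in caNIK and 94.9 and 99.6 CPM in control, so the groups lay far apart and each pair was tight. The log2 fold change was 1.34 ± 0.15 (2.53-fold, edgeR adjusted p = 0.0016).

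Tyk2, the partner of JAK1 at the interferon alpha receptor and of JAK2 at the interleukin-12 receptor, had 121 and 135 CPM in caNIK libraries and 67.9 and 87.2 CPM in control libraries. The groups did not overlap, with the highest control library below the lowest caNIK library. Its log2 fold change was 0.72 ± 0.18 (1.65-fold, edgeR adjusted p = 0.031). The call was lost without control replicate 1 (0.54, edgeR adjusted p = 0.22) and without caNIK replicate 2 (0.63, edgeR adjusted p = 0.082). Tyk2 also did not pass a test against a fold of 1.5 (glmTreat adjusted p = 0.35). Its exons overlap 554 bases of 1700084C06Rik on the other strand.

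Jak1, the kinase shared by gp130, common gamma chain and interferon receptors, had 277 and 251 CPM in caNIK libraries, against 284 and 266 CPM in control libraries. The groups overlapped, and the log2 fold change was -0.06 ± 0.14 (edgeR adjusted p = 0.81). Jak3, which pairs only with the common gamma chain, had 183 and 154 CPM in caNIK libraries and 182 and 195 CPM in control libraries. These values overlapped as well, and the log2 fold change was -0.16 ± 0.15 (edgeR adjusted p = 0.51). Jak3 shares 404 exon bases on the same strand with Insl3, which was counted 21 and 26 times in caNIK libraries and 13 and 16 times in control libraries.

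**Figure D2:**
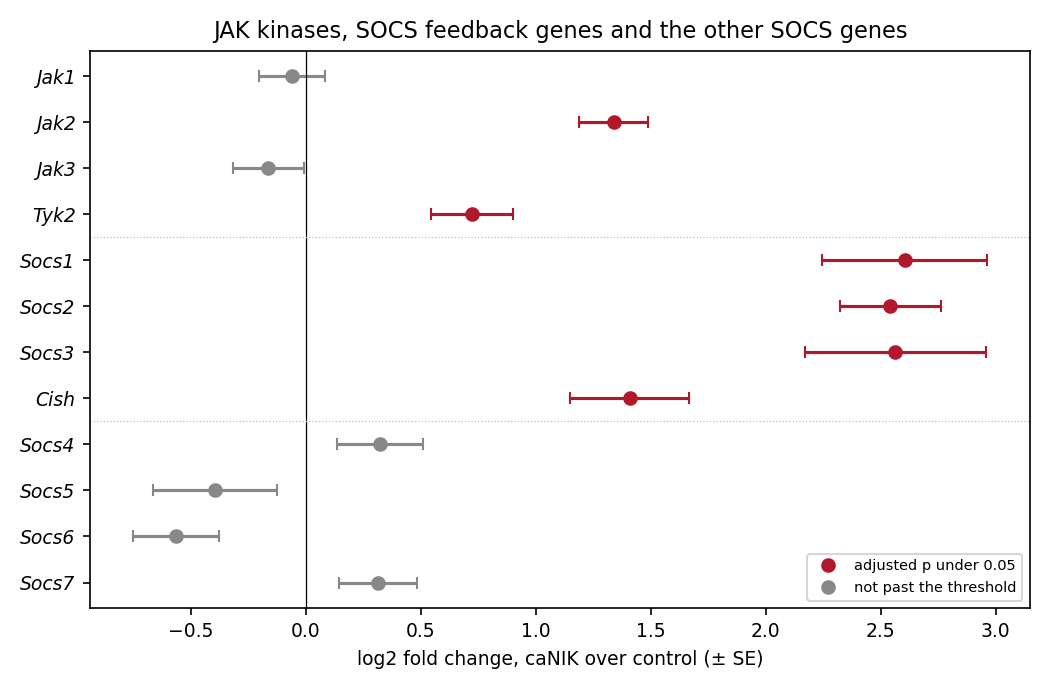
Log2 fold change of caNIK over control with its SE for the 4 JAK kinase genes, the 4 SOCS feedback genes and the 4 other SOCS genes, from edgeR with 2 libraries per group. Red points passed an adjusted p under 0.05: Socs1, Socs2 and Socs3 lie between 2.54 and 2.60, Cish at 1.41 and Jak2 at 1.34, and the other 4 SOCS genes did not pass.

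The other 4 SOCS genes had a median log2 fold change of -0.04, which lay between -0.11 and 0.06 with 1 library left out. Socs4 and Socs5, linked with epidermal growth factor receptor signalling, and Socs6 and Socs7, linked with insulin receptor signalling, were all tested, and 0 of 4 passed as higher or lower by edgeR. DESeq2 and limma-voom likewise called 0 of 4. Socs6 had 25.0 and 28.2 CPM in caNIK libraries, against 41.8 and 36.8 CPM in control libraries, with an unadjusted p of 0.021 and an adjusted p of 0.077 in edgeR. It was the only 1 of the 4 with an unadjusted p under 0.05. Log2 fold changes of Socs4, Socs5 and Socs7 were 0.32 ± 0.19, -0.39 ± 0.27 and 0.31 ± 0.17.

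Ratios of counts within a library do not depend on depth or scaling. Jak2 reads numbered 0.942 and 0.920 times the Jak1 reads in caNIK libraries, against 0.334 and 0.375 times in control libraries. The caNIK ratios were thus far above the control ratios. For Tyk2 over Jak1, the ratios were 0.438 and 0.535 in caNIK and 0.239 and 0.328 in control, which do not overlap, whereas Jak3 over Jak1 gave 0.660 and 0.612 in caNIK and 0.639 and 0.733 in control, which do. Cish reads were 0.216 and 0.237 times the Socs2 reads in caNIK libraries, against 0.505 and 0.478 times in control libraries, so the share of Cish was smaller in both caNIK libraries. For Socs1 over Socs2 the ratios overlapped, at 0.219 and 0.407 in caNIK and 0.344 and 0.216 in control. These ratios were not tested.

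To compare levels between genes, CPM was divided by the length of the longest principal transcript in GENCODE M21. On this scale Jak1 came first in caNIK HSPC at 53.8 ± 3.65 CPM per kb (SD, n = 2), followed by Jak2 at 48.9 ± 4.15, Jak3 at 41.9 ± 5.07 and Tyk2 at 26.5 ± 1.96 CPM per kb. In control HSPC, Jak1 at 56.1 ± 2.65 and Jak3 at 46.9 ± 2.31 CPM per kb lay above Jak2 at 19.3 ± 0.67 and Tyk2 at 16.1 ± 2.83 CPM per kb. Values of neighbours in these orders overlapped only for Jak1 and Jak2 in caNIK. Jak2 thus stood next to Jak1 in caNIK HSPC, overlapping with it, and behind Jak1 and Jak3 in control HSPC. With the length of all exons joined, the caNIK order put Jak2 at 48.9 before Jak1 at 36.5 CPM per kb.

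Per length, Socs2 was the most abundant feedback transcript in both groups, at 55.3 ± 13.1 CPM per kb in caNIK and 9.51 ± 1.14 CPM per kb in control. In caNIK, Socs1 at 12.6 ± 2.49, Socs3 at 10.5 ± 0.67 and Cish at 9.68 ± 1.65 CPM per kb overlapped with each other. In control, Cish at 3.65 ± 0.58 CPM per kb lay above Socs1 at 2.07 ± 0.90 and Socs3 at 1.78 ± 0.91 CPM per kb, which overlapped. The place of Cish depends on the length used. Over joined exons Cish averaged 4.30 CPM per kb in caNIK, below Socs1 at 12.6 and Socs3 at 9.23. In control Cish averaged 1.62 CPM per kb over joined exons, below Socs1 at 2.07 and near Socs3 at 1.57. The size of the lead of Socs2 depends on the transcript chosen, since over its joined exons Socs2 averaged 12.9 CPM per kb in caNIK and 2.22 CPM per kb in control, next to Socs1 with 12.6 CPM per kb in caNIK and 2.07 CPM per kb in control. The summed level of the 4 feedback genes was 0.538 and 0.489 times that of the 4 kinase genes in caNIK libraries, against 0.143 and 0.103 times in control libraries. Over joined exons these ratios were 0.278 and 0.298 in caNIK and 0.0887 and 0.0559 in control, so the groups stayed apart on either length.

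**Figure D3:**
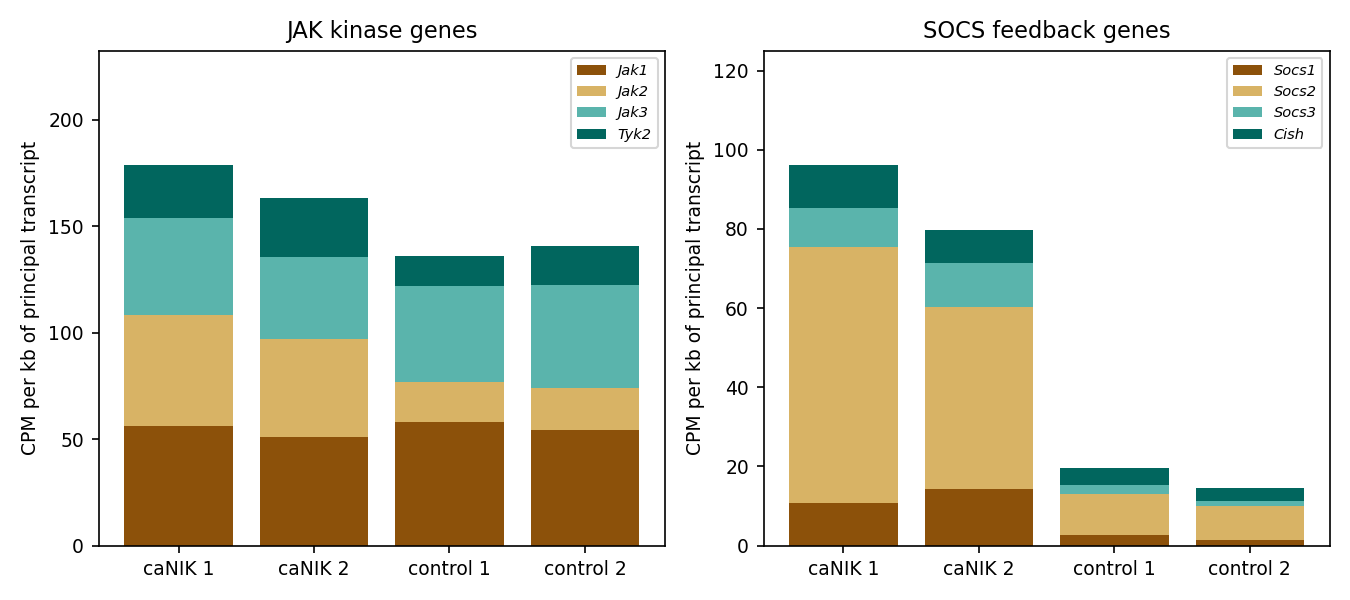
Level per length (CPM per kb of the longest principal transcript) of the 4 JAK kinase genes and the 4 SOCS feedback genes, stacked for each library, caNIK left of control. The JAK stacks reach 179 and 163 CPM per kb in caNIK and 136 and 141 in control, with most of the difference in Jak2, and the SOCS stacks reach 96.2 and 79.8 in caNIK and 19.5 and 14.5 in control.

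Summed markers of mast cells, erythroid cells, neutrophils and dendritic cells were higher in caNIK and also differed between replicates. Summed over the 7 mast cell markers, CPM was 2257 and 1165 in caNIK libraries and 50.6 and 49.3 in control libraries, with 6 of 7 markers higher. Over 7 erythroid markers found in the files, sums were 1473 and 2332 CPM in caNIK, against 310 and 639 CPM in control, with 5 of 7 higher. Neutrophil markers summed to 242 and 349 CPM in caNIK and 31.5 and 45.6 CPM in control (6 of 8 higher), and dendritic cell markers to 75.0 and 56.1 CPM in caNIK and 12.9 and 17.3 CPM in control (4 of 7 higher). Within the caNIK pair, mast cell sums were higher in replicate 1, as were Socs2, Cish and Jak2. Sums of HSPC, T cell, B cell, natural killer, dendritic cell and endothelial markers had that order too. Erythroid, neutrophil and monocyte and macrophage sums were higher in caNIK replicate 2, as were Socs1, Socs3 and Tyk2. In the control pair, mast cell sums, Socs2 and Cish were higher in replicate 1, and erythroid and neutrophil sums and Tyk2 in replicate 2. Socs1 and Socs3 were instead higher in control replicate 1, and Jak2 in control replicate 2. No marker of these lists was at 0 in all 4 libraries, and the part of such cells in the rise of the SOCS genes, Jak2 and Tyk2 was not tested.

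HSPC markers checked the label of the sort. Their sum over 12 genes was 1518 and 1286 CPM in caNIK libraries, against 3087 and 2734 CPM in control libraries, with 1 of 12 higher and 4 lower. The 4 lower markers were Cd34, Flt3, Hlf and Lmo2, with log2 fold changes of -2.66, -2.64, -2.93 and -1.32. Ly6a was the 1 higher marker, at 2.56. Of the markers that did not pass, Tal1 (higher) and Cd48 and Meis1 (both lower) had an unadjusted p under 0.05 in edgeR. Kit, the stem cell factor receptor, did not pass, with 557 and 506 CPM in caNIK and 610 and 613 CPM in control. T cell markers, relevant to Jak3, summed to 169 and 75.6 CPM in caNIK and 121 and 53.8 CPM in control. Of these, 0 of 8 passed the threshold by edgeR, and 2, Cd4 and Cd5, had an unadjusted p under 0.05 (both higher in caNIK). Cd4 alone had 74.4 and 28.5 CPM in caNIK and 20.7 and 16.2 CPM in control. The log2 fold changes of Cd3d, Cd3e, Cd3g, Cd28 and Lat were -0.66, -0.71, -0.25, -1.09 and -0.30, and that of Cd8a was 0.098. Natural killer markers summed to 142 and 53.7 CPM in caNIK and 49.5 and 36.3 CPM in control (2 of 7 higher). B cell markers summed to 95.3 and 51.7 CPM in caNIK and 69.9 and 50.6 CPM in control (1 higher and 1 lower of 7). Monocyte and macrophage markers summed to 128 and 157 CPM in caNIK and 54.1 and 105 CPM in control (0 of 7 past the threshold by edgeR, and C1qa and C1qc at an unadjusted p under 0.05). Endothelial markers, some of them shared with stem cells, summed to 158 and 95.9 CPM in caNIK and 367 and 329 CPM in control (2 of 7 lower). Control replicate 1 had the higher T cell sum of the control pair, as it had the higher Socs1 and Socs3. Its HSPC, B cell, natural killer, mast cell and endothelial sums were also the higher of that pair. In the caNIK pair the T cell sum was higher in replicate 1, whereas Socs1 and Socs3 were higher in replicate 2. The part of T cells in those values was not tested.

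STAT genes encode the factors that carry the signal from the kinases, and those described here are given 1 by 1. From here on, medians of lists and values with ± and no unit are log2 fold changes with their SE. Beside the counts of calls in lists stand 13.8% higher and 8.21% lower over all tested genes. Stat2, a factor of the type I interferon response, had 128 and 104 CPM in caNIK libraries, against 49.7 and 40.9 CPM in control libraries (1.36 ± 0.18, edgeR adjusted p = 0.0036). Stat3, the factor of gp130 signalling that induces Socs3, had 308 and 273 CPM in caNIK libraries, against 136 and 149 CPM in control libraries (1.03 ± 0.15, edgeR adjusted p = 0.0047). Both had caNIK libraries well above control libraries. Stat6, which serves interleukin-4, rose by 0.57 ± 0.15, and Stat4, which serves interleukin-12, was lower at -1.20 ± 0.32. Stat5a and Stat5b, the factors that induce Cish and Socs2, did not pass, with 0.45 ± 0.17 and -0.33 ± 0.16, although Stat5a did without caNIK replicate 1 (edgeR adjusted p = 0.045). Stat6 lost its call without control replicate 1, control replicate 2 or caNIK replicate 2 (edgeR adjusted p = 0.25, 0.16 and 0.069), and Stat4 without control replicate 1 or caNIK replicate 2 (0.091 and 0.092).

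A list of 10 receptors of the common gamma chain, which binds JAK3, and of related chains had 3 higher and 2 lower, with a median of 1.04. Il13ra1, which pairs with Il4ra, and Crlf2, which pairs with Il7r, are on the list but do not bind the common gamma chain. Il9r, the interleukin-9 receptor, had 310 ± 40.4 CPM in caNIK and 6.39 ± 0.85 CPM in control (SD, n = 2), a log2 fold change of 5.60 ± 0.21 (edgeR adjusted p = 5.5e-05). Il13ra1, an interleukin-13 receptor chain, rose by 4.55 ± 0.36, and Il2rg, the common gamma chain itself, by 2.13 ± 0.20. The members that fell, Crlf2 (the thymic stromal lymphopoietin receptor) and Il21r, were at -1.32 ± 0.25 and -1.22 ± 0.24, and Il21r lost the call without control replicate 1 (edgeR adjusted p = 0.051) and in glmTreat (0.056). Higher members numbered 6 with the replicate number as a block and 5 with no filter on low counts, since Il7r and Il2rb passed in both (edgeR adjusted p = 0.0064 and 0.0053 with the block, 0.035 and 0.0496 with no filter) and Il2ra with the block (0.022). When control replicate 1 was left out, 6 were higher and 1 lower. In that fit the median was 1.74, and it was 0.30 when caNIK replicate 1 and 0.56 when control replicate 2 was left out.

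Among receptors that signal through JAK2, Csf3r, the G-CSF receptor, had 10.3 ± 3.20 CPM in caNIK and 89.5 ± 13.8 CPM in control (SD, n = 2). It fell by 3.12 on the log2 scale (SE 0.26, edgeR adjusted p = 0.00068). Csf2rb2 and Csf2rb, the beta chains of the interleukin-3 family, rose by 3.35 ± 0.16 and 1.17 ± 0.15, and as near-identical copies they may share reads. Epor, the erythropoietin receptor, had 66.3 and 137 CPM in caNIK and 18.4 and 46.1 CPM in control and did not pass (1.66 ± 0.49, edgeR adjusted p = 0.055). Epor did pass with the replicate number as a block (edgeR adjusted p = 0.00019), with no filter on low counts (0.0012), in DESeq2 (0.0016) and in limma-voom (0.046). Dropping control replicate 1 gave a log2 fold change of 1.13, dropping control replicate 2 gave 2.47 and dropping caNIK replicate 1 gave 2.09, each past the threshold. When caNIK replicate 2 was dropped, it was 1.03 (edgeR adjusted p = 0.21).

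In the gp130 family, 3 of 6 tested receptors were higher and 1 lower (median 0.80). Il27ra, the interleukin-27 receptor, rose by 2.12 ± 0.22 (edgeR adjusted p = 0.0013). Il6st, which encodes gp130, rose by 0.92 ± 0.26 and stood just inside the threshold (edgeR adjusted p = 0.0495). It lost the call without control replicate 2 (edgeR adjusted p = 0.11) and without caNIK replicate 1 (0.49 on the log2 scale, adjusted p = 0.11), and also in limma-voom (0.053), with upper-quartile factors (0.066), with library totals (0.080) and in glmTreat (0.22). Cntfr, the receptor of ciliary neurotrophic factor, had 78 reads in caNIK libraries and 0 in control libraries. Against 3 counts over the control group its level was at least 28.2-fold higher, and the list median was the same with it at that bound. Its call was lost without caNIK replicate 2 (edgeR adjusted p = 0.052). Il6ra, the interleukin-6 receptor, was lower at -0.94 ± 0.26, a call lost without control replicate 2 (edgeR adjusted p = 0.32), without caNIK replicate 1 (0.11) and without caNIK replicate 2 (0.079). In each of the fits that lost Il6ra, 2 members were higher and 0 lower, and without caNIK replicate 1 the median was 0.52.

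Receptors for interferons and for the IL-10 and IL-12 families had 2 higher and 1 lower of 11 tested members, with a median of 0.10. This number of calls lies near the share over all tested genes, of which 22.0% passed. Ifnlr1, the interferon lambda receptor, was counted 1068 times in caNIK libraries and 3 times in control libraries, a depth-scaled ratio of 387 with an exact 95% counting interval of 132 to 1878. The caNIK libraries had 14.9 and 38.1 CPM, against 0 and 0.128 CPM in control libraries. With 1 library left out the fitted log2 fold change lay at 7.62 (without control replicate 1 or caNIK replicate 2), 8.98 (without caNIK replicate 1) and 12.02 (without control replicate 2, where no control read is left and the value depends on the prior count). Ifngr2, the interferon gamma receptor chain that binds JAK2, rose by 0.96 ± 0.22, and Ifnar2, a type I interferon receptor chain, was lower at -0.62 ± 0.16. Neither call held in every fit, since Ifngr2 did not pass without control replicate 2 or caNIK replicate 2 (edgeR adjusted p = 0.098 and 0.082), nor Ifnar2 without control replicate 1, control replicate 2 or caNIK replicate 2 (0.18, 0.096 and 0.073). Higher members numbered 1 without control replicate 2. The list's median moved to 0.59 when control replicate 1 was dropped, to 0.18 for control replicate 2, to -0.08 for caNIK replicate 1 and to 0.22 for caNIK replicate 2.

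Of 28 listed ligands of such receptors, 13 were tested, with 4 higher and 2 lower and a median of 1.41. This median is the value of Il23a, counted 14 and 12 times in caNIK libraries and 9 and 1 times in control libraries. Il13, with 30 and 57 counts in caNIK and 0 and 1 in control, passed the filter on low counts through caNIK alone. With no such filter the median was 1.18 over 20 ligands, and with 1 CPM required in 2 libraries it was 1.90 over 9. Lif, a gp130 ligand, had 22.4 ± 2.82 CPM in caNIK and 0.623 ± 0.219 CPM in control (log2 fold change 5.17 ± 0.40, edgeR adjusted p = 0.00047). Osm, another gp130 ligand and a STAT5 target, rose by 1.96 ± 0.28. Il12a, a chain of interleukin-12, was lower at -1.94 ± 0.27. Ifng did not pass, at 6.61 ± 5.53 CPM in caNIK and 1.76 ± 1.83 CPM in control (edgeR adjusted p = 0.21), but passed with the replicate block (0.014) and without control replicate 1 (0.011), and Ifnb1 had 0 counts in every library. Without caNIK replicate 2, 2 ligands were higher and 1 lower. The lower ones also numbered 1 without control replicate 1, and the median was 0.50 without control replicate 2 and 0.62 without caNIK replicate 1.

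**Figure D4:**
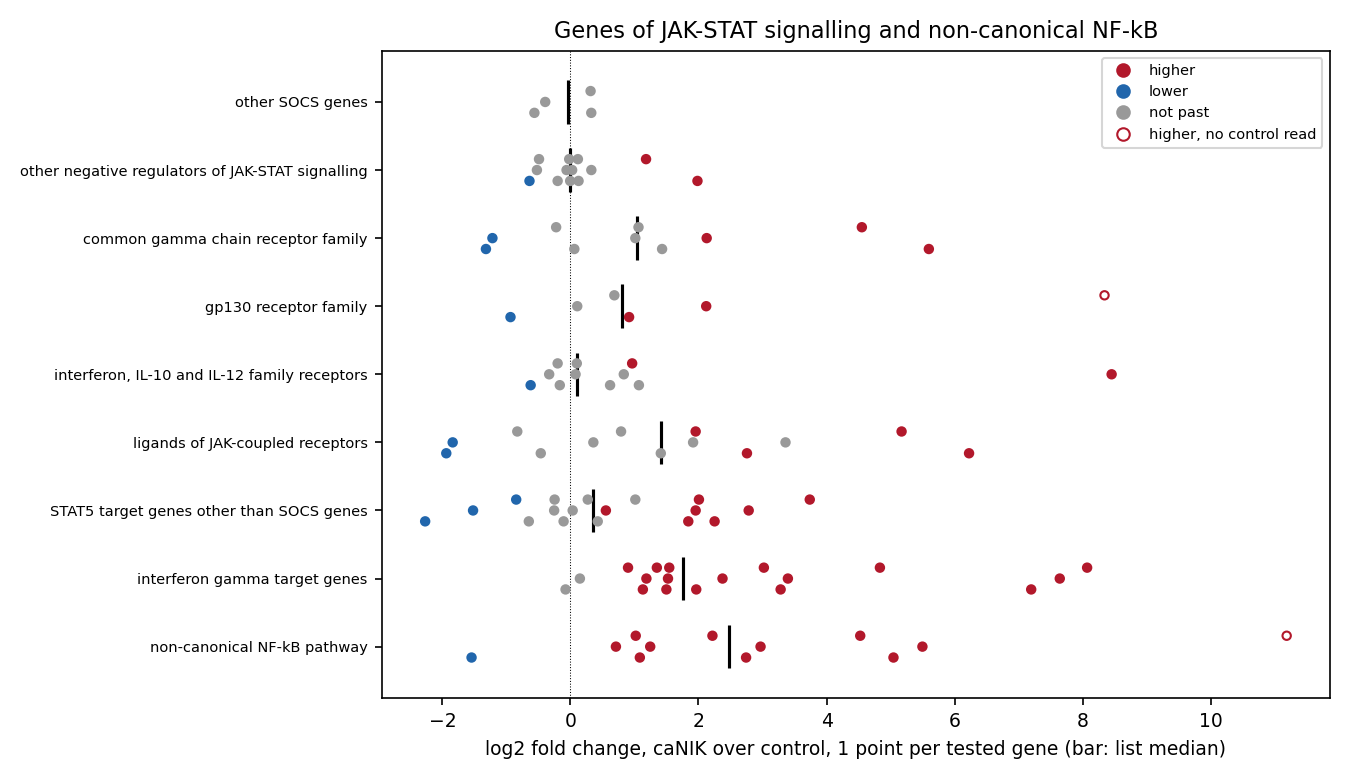
Log2 fold change of caNIK over control for every tested gene of 9 lists of JAK-STAT signalling and non-canonical NF-kB (edgeR, 2 libraries per group), with a bar at each list median. Red, blue and grey points were higher, lower and not past the threshold, and open points, Cntfr and Cd40, had no control read, so that their place on the axis depends on the prior count. The list of interferon gamma targets has 16 of 18 points in red, while those of receptors hold both red and blue points.

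Beside the SOCS genes, STAT5 targets were mixed, with 7 higher and 3 lower of 18 and a median of 0.35. The list does not separate targets that STAT5 induces from targets that it represses, so these counts do not measure STAT5 activity. Cdkn1a, an inhibitor of the cell cycle that p53 also induces, rose by 2.25 ± 0.27, Tnfrsf4, a co-stimulatory receptor, by 3.74 ± 0.47, and Pim2, a survival kinase, by 1.84 ± 0.24. Tnfrsf4 had 19.6 and 48.0 CPM in caNIK libraries, against 2.59 and 2.47 CPM in control libraries, and its log2 fold change was 2.94 without caNIK replicate 2. The members that fell were Id1, Myc and Gfi1, at -2.27 ± 0.38, -0.85 ± 0.16 and -1.52 ± 0.43. Gfi1 was at -2.41 without caNIK replicate 1, and it lost the call with library totals (edgeR adjusted p = 0.057) and in glmTreat (0.12). Myc lost the call without control replicate 2 (edgeR adjusted p = 0.058) and in glmTreat (0.12). Without control replicate 2 the lower ones numbered 2, and without caNIK replicate 1 the median was 0.22.

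Of 18 targets of interferon gamma, 16 were higher and 0 lower, with a median of 1.75, and neither of the other two had an unadjusted p under 0.05. Ciita, the master regulator of MHC class II genes, had 280 ± 73.3 CPM in caNIK and 1.0 ± 0.69 CPM in control (log2 fold change 8.07 ± 0.45, edgeR adjusted p = 2e-04), with 9.06 without control replicate 2. The GTPase genes Gbp5 and Gbp2 rose by 3.40 ± 0.21 and 3.28 ± 0.22. Irf8 and Psmb8 did not pass.

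Other brakes on JAK-STAT signalling had 2 higher and 1 lower of 13, with a median of -0.0048. That number of calls is close to the share over all tested genes, of which 22.0% passed. Ptpn1, a phosphatase that acts on JAK2 and TYK2, had 192 ± 29.1 CPM in caNIK and 84.8 ± 5.17 CPM in control (1.18 ± 0.17 on the log2 scale, edgeR adjusted p = 0.0044). Usp18, an interferon-induced inhibitor of the type I interferon receptor, rose by 1.98 ± 0.34. Sh2b3, which encodes LNK and restrains JAK2 in stem cells, was lower at -0.64 ± 0.16, and lost the call without control replicate 1, control replicate 2 or caNIK replicate 2 (edgeR adjusted p = 0.063, 0.21 and 0.081). Ptpn6, Ptpn11 and Ptprc, further phosphatase genes, had log2 fold changes of -0.0048 ± 0.16, 0.026 ± 0.15 and -0.020 ± 0.30.

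The non-canonical NF-kB list, the pathway of the transgene, had 11 higher and 1 lower of 12, with a median of 2.48. Nfkb2, Relb and Birc3 had the smallest p, with log2 fold changes of 5.05 ± 0.22, 4.53 ± 0.21 and 2.97 ± 0.16 (edgeR adjusted p from 8.2e-05 to 0.00018). Ltbr, the lymphotoxin beta receptor, was the one that fell, at -1.55 ± 0.20. The list holds Map3k14. Cd40, a receptor upstream of NIK, had 553 reads in caNIK libraries and 0 in control libraries, which is at least 200.2-fold higher against 3 counts over the control group. With Cd40 at that bound the median was the same.

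The profile of Socs2 was compared with that of every other tested gene over the 4 libraries, as the distance between centred log2 CPM values. The closest were Cr2, a complement receptor (distance 0.072), Cd83, an activation marker of dendritic and B cells (0.089), and Stk39, a kinase of ion transport (0.10). Cr2 had 6.66 and 4.82 CPM in caNIK libraries and 0.933 and 0.809 CPM in control libraries. Each had its highest value in caNIK replicate 1 and its lowest in control replicate 2, as did Socs2. The 3 genes were picked by this distance over the same 4 libraries, so their shared order follows from the choice. The 4 libraries form 2 groups, and the group difference enters this distance.

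**Figure D5:**
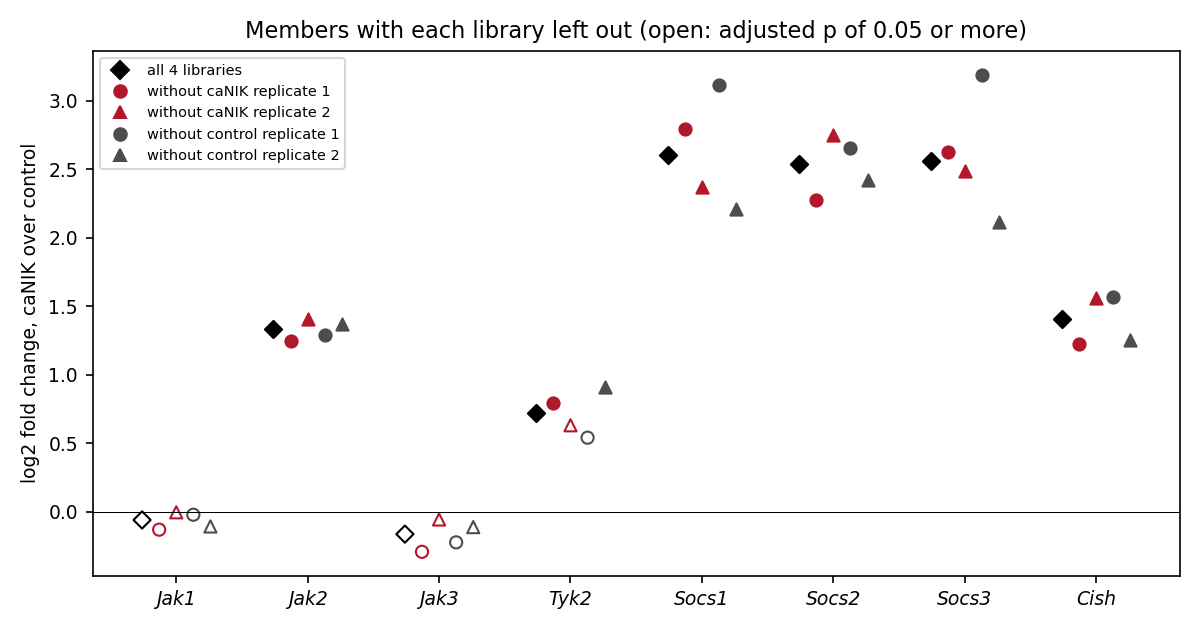
Log2 fold change of caNIK over control for the 8 members with all 4 libraries and with each library left out in turn (edgeR), where open symbols have an adjusted p of 0.05 or more. Socs1 and Socs3 move most, between 2.21 and 3.12 and between 2.11 and 3.19, Tyk2 turns open when control replicate 1 or caNIK replicate 2 is dropped, and Jak1 and Jak3 have open symbols in every fit.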

How the data were processed

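For each library the authors deposited raw read counts by gene symbol, whole numbers that were not normalized, as read from the file headers. Tools named in the submitters' processing notes are FastQC, TopHat2 2.1.0, featureCounts 1.5.0, DESeq2 1.10.1 and the build mm9, with no role or order. Not given in the sources used here are the annotation, the strand setting and how multi-mapping reads were handled. Groups and replicate numbers came from the sample titles.

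Counts were fitted by edgeR 4.0.16 under R 4.3.3. The filter filterByExpr kept 14191 of 24015 genes, libraries were scaled by TMM, and caNIK was set against control by the quasi-likelihood F test, with no other covariate. The threshold was 0.05 for p adjusted by Benjamini-Hochberg over all tested genes. Log2 fold changes are caNIK over control with SE from the F statistic, and levels are CPM, mean ± SD over n = 2. Transcript lengths came from GENCODE M21 (GRCm38). The scripts were tested on simulated data with known changes. Bounds for genes with 0 control counts use 3 counts over the group, and such limits reflect only counting error.

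The members, the 11 pathway lists and the 10 marker lists were chosen with earlier results of these data known. Named were all members, Map3k14, the STAT and other SOCS genes (some items are not reported here), the 3 smallest p among the passing genes of each list, and the 3 genes closest to the member with the smallest p. Other genes named, among them Il6st, Epor, Csf2rb, Crlf2, Il21r, Il7r, Il2rb, Il2ra, Il3ra, Il4ra, Ifng, Ifnb1, Ltbr, Id1, Myc, Gfi1, Irf8, Psmb8, Cd40, Cd4, Cd5, C1qa, C1qc, Kit and the phosphatase genes besides Ptpn1, were chosen after their values were seen. Alternatives were DESeq2 1.42.0, limma-voom 3.58.1, other scalings and filters, the replicate number as a block, glmTreat against a fold of 1.5, and each library left out.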

Additional observations from a re-analysis of the deposited data

How the results depend on the processing

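Over 13 alternatives, Jak2, Socs1, Socs2, Socs3 and Cish kept their direction and stayed past the threshold in each, and Jak1 and Jak3 stayed below 0 and did not pass in any. Tyk2 lost its call in 3: without control replicate 1, without caNIK replicate 2, and in glmTreat against a fold of 1.5, where its log2 fold change was 0.72 with an adjusted p of 0.35. With 1 library left out, log2 fold changes ranged from 0.54 to 0.91 for Tyk2, 1.25 to 1.41 for Jak2, 2.21 to 3.12 for Socs1, 2.28 to 2.75 for Socs2, 2.11 to 3.19 for Socs3 and 1.22 to 1.57 for Cish, where the lone library of a group was assumed to vary like the other group. No gene named by the rule reversed, while 3 list medians near 0 changed sign: those of the interferon receptors, of the other SOCS genes and of the other negative regulators (-0.0048, from -0.07 to 0.14 over the alternatives). Over all genes, against 1165 with all libraries, lower calls numbered 1766 with the replicate block, 458 in glmTreat and 747 (without control replicate 1) to 1377 with 1 library left out. Distinct genes of the 11 lists were lower in 14 cases, in 6 in glmTreat and in 9 (without control replicate 1 or caNIK replicate 2) to 15 with 1 library left out. The cause of these shifts was not tested, except that glmTreat demands a larger change.

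The replicate number was tried as a block because both groups carry numbers 1 and 2. Deviations from the group mean correlated at 0.21 between same-numbered libraries, but with 2 pairs and no label of a shared source the numbers are not taken to pair the samples. Under the block 6 members were higher and 0 lower, as without it, and of the genes named by the rule Stat5a newly passed (0.44, edgeR adjusted p = 0.040). Outside the rule Epor, Ifng, Il7r, Il2rb, Il2ra and Il3ra newly passed, so that the common gamma chain list had 6 higher, against 3 without the block. No scaling moved the median of all genes by over 0.1 on the log2 scale. Per-length levels with joined exons, an alternative chosen after seeing the data, put Jak2 before Jak1 in caNIK and brought Socs2 close to Socs1. They also put the mean of Cish below that of Socs1 in both groups. With 2 libraries per group, calls of small changes are limited by replicate spread.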
